A study of Mus musculus with 6 samples.

Results

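The genes described here build the nuclear pore complex or carry cargo through it, and were measured in mouse oocytes at metaphase II. They were taken from the deposited expression table by symbol: nucleoporins named Nup with a number, the importin alpha genes Kpna, the importin beta gene Kpnb1, and the Ipo, Tnpo and Xpo genes. This gave 44 of the 24254 named gene rows, 22 pore rows and 22 transport receptors. The series addresses how maturation outside the body alters gene expression and metabolism of the oocyte. The oocytes of 3 libraries had reached metaphase II by in vitro maturation (IVM), and those of the other 3 had matured in the animal (IVO). The sources used here name no strain, age, hormone treatment or culture medium. Nor do they say whether replicates are separate animals or collections: the p-values therefore cover the spread among these libraries alone, and that spread may be technical.

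The nuclear pore is a ring of nucleoporins set into the nuclear envelope. Scaffold rings hold it in the membrane, and nucleoporins rich in phenylalanine-glycine repeats line the channel. Importin alpha recognises a nuclear localisation signal and links the cargo to importin beta, other receptors of the beta family bind cargo directly, and the small GTPase Ran sets the direction of travel. In an oocyte at metaphase II the envelope has broken down, and the transcripts present are maternal stores that the embryo draws on when it forms pronuclei. Importins and Ran also act at the meiotic spindle, where importins hold spindle assembly factors inactive until Ran-GTP releases them.

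Levels are FPKM, fragments scaled by the length of the transcript and the size of the library, as the authors deposited them, so levels of different genes are set side by side per length. Summed FPKM was 353438 to 364983 in IVM libraries and 394233 to 402054 in IVO libraries, and 7853 to 8029 and 7187 to 7327 genes reached an FPKM of 1. Depth in reads is unknown. The 8 oocyte markers examined had a summed FPKM of 12591 to 13030 in IVM and 8271 to 10189 in IVO, and 6 of them were higher in IVM. Of these, Zp2 was at 14.0 to 16.1 FPKM in IVM and 0.316 to 0.447 in IVO, and reached the level tested through IVM only. The 12 cumulus and granulosa cell markers summed to 23.2 to 46.8 in IVM and 15.0 to 40.3 in IVO, with 4 below an FPKM of 1 in every library, 1 higher in IVM (Inha) and 2 lower (Inhba and Tnfaip6, which reached the level tested through IVO only). Below the level tested, Amh, Amhr2, Foxl2 and Fshr were higher in every IVM library than in any IVO library, while Has2 and Star overlapped. Amh averaged 1.75 FPKM in IVM and 0.189 in IVO, and Foxl2 0.665 and 0.0745. Of all genes detected below that level, 14.9% were higher in IVM without overlap. The 7 oviduct markers summed to 146 to 175 in IVM and 188 to 221 in IVO, nearly all of it Cdh1. Cdh1 alone was at 145 to 173 and 184 to 220.1 FPKM and was lower in IVM (adjusted p = 0.0216). The highest value of any other oviduct marker was 1.59 FPKM (Epcam in IVO replicate 3), and Pax8 was listed at 0 in every library. The 5 blood and immune markers summed to 0.678 to 2.29 and 0.215 to 3.05. The 5 stroma and vessel markers summed to 35.1 to 37.2 and 37.8 to 39.8, mostly Pecam1. The part of other cells in the results below was not tested.

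Of the 44 genes, 28 averaged an FPKM of 1 or more across the 6 libraries and were tested, 13 were detected below that level, and 3 (Nup210l, Nup62cl and Nup62-il4i1) were listed at 0 in every library. A gene was called at an adjusted p under 0.05, from limma on log2(FPKM + 1) with Benjamini-Hochberg adjustment over all 7746 genes tested. Of the 28, 9 were lower in IVM (Nup50, Kpna3, Nup88, Xpo6, Ipo5, Nup160, Nup62, Nup98 and Ipo8), 3 were higher (Kpna2, Nup214 and Ipo9), and 16 were not called. Among all tested genes 20.4% were lower, 20.6% higher and 41.0% called in either direction. The shares among the 28 were 32.1% lower and 10.7% higher. Groups of libraries did not overlap for 13 tested members lower in IVM and 3 higher, against 27.7% and 25.8% of all tested genes. Kpna2 and Ipo9 passed the level filter through IVM only, and Nup85 through IVO only. In each case this was the group with the higher mean, the mean in the other group being under 1.

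The share of lower calls moved with abundance in the whole table as well as among the members. Of the 17 members whose mean FPKM was 5 or more, 8 (47.1%) were lower in IVM and 1 (5.88%, Nup214) was higher. Of all genes at that level, 30.1% were lower, 18.1% higher and 48.2% called in either direction. The median log2 difference, IVM minus IVO, was -0.30 over the 28 tested members and -0.02 over all tested genes, and -0.32 and -0.12 at a mean FPKM of at least 5. By the q-values in the authors' deposited table, 11 of the 28 were lower and 4 higher, where 23.0% of all tested genes were lower and 21.7% higher.

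**Figure D1:**
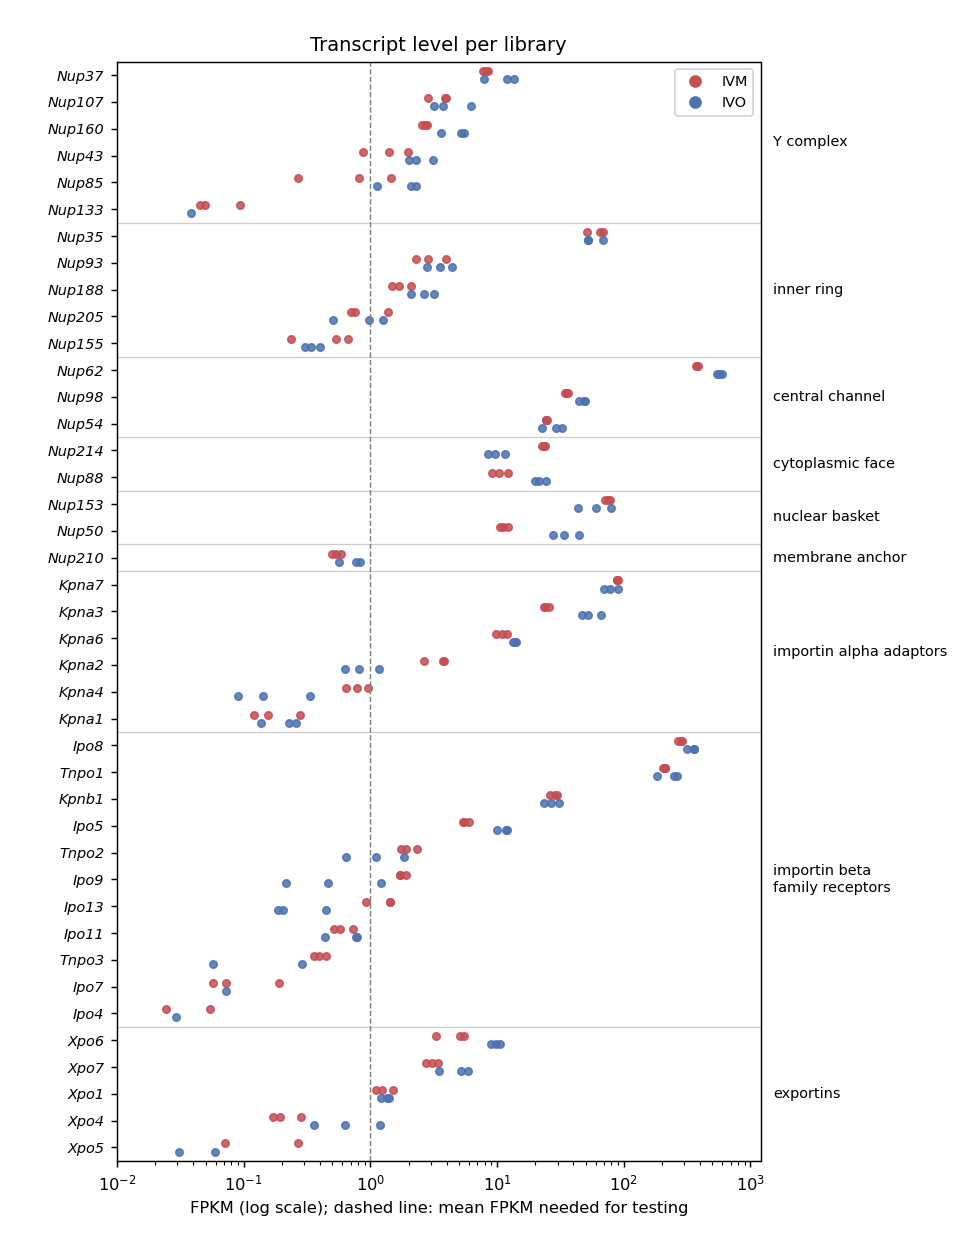
FPKM of each gene in each library on a log axis, grouped by role, with 1 point per library and the groups in different colours. The dashed line is the mean FPKM of 1 needed for testing, and values listed at 0 are not drawn, so the 3 genes at 0 in every library are absent. Nup62, Ipo8 and Tnpo1 lie above all other genes in every library.

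The pool was uneven. Nup62, Ipo8 and Tnpo1 stood at an FPKM of 183 or more in every library, and no other member exceeded 89.9. Below them came Kpna7, Nup153, Nup35, Nup98, Kpna3, Kpnb1, Nup54 and Nup50, each with a mean of at least 20. Summed over the 44 genes, FPKM was 1311 ± 18.3 in IVM and 1645 ± 82.6 in IVO (n = 3, SD), which was 0.364 ± 0.00132% and 0.414 ± 0.0210% of the summed FPKM of all genes. Both measures separated the groups without overlap, with p = 0.1 in an exact two-sided permutation test over libraries. No smaller p is possible with 3 libraries a group. In bulk libraries, fewer cells of a type and less RNA per cell cannot be told apart.

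Nup62 dominated the pore transcripts. Nup62 (ENSMUSG00000109511.1, GRCm38 chr7:44816088-44830812, plus strand) encodes the FG-repeat nucleoporin at the centre of the transport channel. Its FPKM was 380.1, 388 and 373 in IVM replicates 1, 2 and 3, and 548, 592 and 567 in IVO replicates 1, 2 and 3. All IVO libraries lay above all IVM libraries, at 1.49 times the IVM mean (log2 difference -0.58, SE 0.0649, adjusted p = 0.000212). It made up 59.0 ± 0.404% of the summed FPKM of the Nup genes in IVM and 65.9 ± 1.35% in IVO (n = 3, SD; exact two-sided permutation test, p = 0.1, the smallest possible). Exons of Nup62 overlap those of Il4i1 on the same strand and of Atf5 on the other, and the sources used here do not give strand use in counting. Both neighbours were low, with Il4i1 at 0.195 ± 0.202 and 0.288 ± 0.159 FPKM and Atf5 at 2.83 ± 0.376 and 2.42 ± 0.644 in IVM and IVO.

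The other channel genes of the set were at lower levels. Nup98, an FG nucleoporin whose precursor is also cut to release a scaffold subunit, was at 34.4, 35.3 and 36.3 FPKM in IVM and 48.6, 49.6 and 44.2 in IVO. The groups did not overlap, and Nup98 was lower in IVM (log2 difference -0.42, SE 0.0951, adjusted p = 0.00785). Nup54, which forms a complex with Nup62, was not called, with 24.4 ± 0.220 FPKM in IVM and 28.1 ± 5.09 in IVO (n = 3, SD; adjusted p = 0.344).

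The partners at the cytoplasmic face moved in opposite directions. Nup214 and Nup88 bind each other and form the docking site where export complexes leave the channel. Nup214 (chr2:31974436-32053975) was at 22.6, 23.5 and 23.9 FPKM in IVM and 11.5, 8.52 and 9.55 in IVO. Every IVM library was above every IVO library, and the IVM mean was 2.37 times the IVO mean (log2 difference 1.17, SE 0.136, adjusted p = 0.000241). Nup88 (chr11:70943058-70969973) was at 10.3, 9.04 and 12.2 FPKM in IVM and 21.3, 24.3 and 20.1 in IVO. Here every IVO library was above every IVM library, at 2.08 times the IVM mean (log2 difference -0.996, SE 0.145, adjusted p = 0.000809). The ratio of Nup214 to Nup88 was 2.25 ± 0.320 in IVM and 0.455 ± 0.0960 in IVO (n = 3, SD; exact two-sided permutation test, p = 0.1, the smallest possible). The summed FPKM of the pair was close between groups, at 33.9 ± 1.96 and 31.7 ± 1.86. Nup88 exons overlap Rabep1 on the other strand, which averaged 0.893 ± 0.343 FPKM in IVM and 1.08 ± 0.218 in IVO. Annotated exons of Nup214 overlap Fam78a, Gm13609 and Gm16534 on the other strand and Mir7674 on the same strand. Fam78a averaged 0.255 ± 0.205 FPKM in IVM and 0.422 ± 0.282 in IVO, and its deposited locus does not overlap that of Nup214. Mir7674, whose deposited locus does overlap, was listed at 0.

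The basket pair also changed its proportions. Nup153 anchors the nuclear basket, and Nup50, a mobile partner of Nup153, binds importin alpha and helps release imported cargo. Nup50 (chr15:84923411-84942963) was at 10.5, 12.3 and 11.1 FPKM in IVM and 27.9, 33.8 and 44.3 in IVO. On the log2(FPKM + 1) scale it had the largest difference in size of the 28 tested members, whereas with 0.1 added in place of 1 those of Kpna2 (1.86) and Ipo9 (1.62) were larger than that of Nup50 (-1.61). IVM and IVO libraries did not overlap, with an IVO mean 3.12 times the IVM mean (log2 difference -1.54, SE 0.168, adjusted p = 0.000192). Nup153 was at 75.1, 71.4 and 77.3 FPKM in IVM and 79.3, 60.4 and 43.7 in IVO. IVO replicate 1 was above every IVM library and the other IVO libraries were below them, and Nup153 was not called (log2 difference 0.32, SE 0.184, adjusted p = 0.193). Without IVO replicate 1 it was called higher in IVM (adjusted p = 0.0185), as it was by the q-value of 0.0449 in the authors' deposited table. The ratio of Nup50 to Nup153 was 0.140 to 0.172 in IVM libraries and 0.352 to 1.01 in IVO libraries (exact two-sided permutation test, p = 0.1, the smallest possible).

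**Figure D2:**
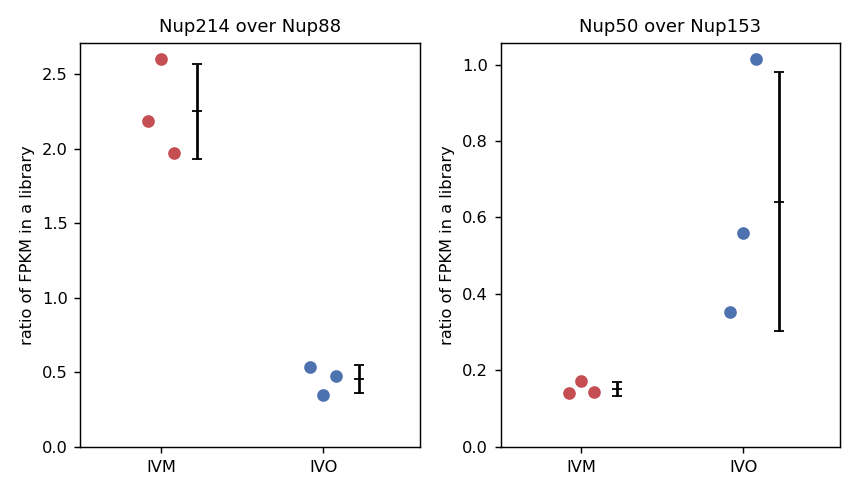
Ratios of FPKM of partner genes, with 1 point per library and the mean with its SD beside the points. The groups do not overlap in either panel: Nup214 to Nup88 is higher in IVM (2.25 against 0.455), and Nup50 to Nup153 is higher in IVO, where it runs from 0.352 to 1.01.

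Among the scaffold genes of the set, 1 of 8 tested was called, and pore genes with other symbols are described further below. The Y complex builds the outer rings, and 5 of its 6 genes in the set were tested. Nup160 was at 2.78, 2.68 and 2.55 FPKM in IVM and 3.59, 5.22 and 5.45 in IVO, without overlap, and was lower in IVM (log2 difference -0.63, SE 0.189, adjusted p = 0.0258). That call was lost without any 1 of IVM replicates 1, 2 and 3 or IVO replicates 2 and 3, with no level filter and with equal summed FPKM, with adjusted p from 0.0542 to 0.0782. Nup37, the most abundant of these 6, averaged 8.13 ± 0.371 FPKM in IVM and 11.2 ± 2.97 in IVO (n = 3, SD) and was not called (adjusted p = 0.141). IVO replicate 3 was at 7.91, inside the IVM range, and without that library Nup37 was called lower in IVM (adjusted p = 0.0102). Nup43, Nup85 and Nup107 had log2 differences of -0.53, -0.64 and -0.21 and were not called (adjusted p = 0.0972, 0.106 and 0.523), although the groups did not overlap for Nup43. In the inner ring, which binds the membrane and the channel, none of the 3 tested genes was called. Nup35, the most abundant, averaged 61.7 ± 9.18 FPKM in IVM and 57.5 ± 9.23 in IVO (n = 3, SD; adjusted p = 0.611). Its annotated exons overlap Dusp19 on the same strand, which averaged 14.9 ± 2.57 and 25.2 ± 1.81 FPKM, while the loci in the deposited table do not overlap. Nup93 and Nup188 had log2 differences of -0.19 and -0.40 (adjusted p = 0.523 and 0.134). For Nup188 the groups did not overlap, and the authors' deposited table gives it a q-value of 0.0349. The membrane anchor Nup210 was below the level tested, at 0.497 to 0.586 FPKM in IVM and 0.565 to 0.831 in IVO.

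**Figure D3:**
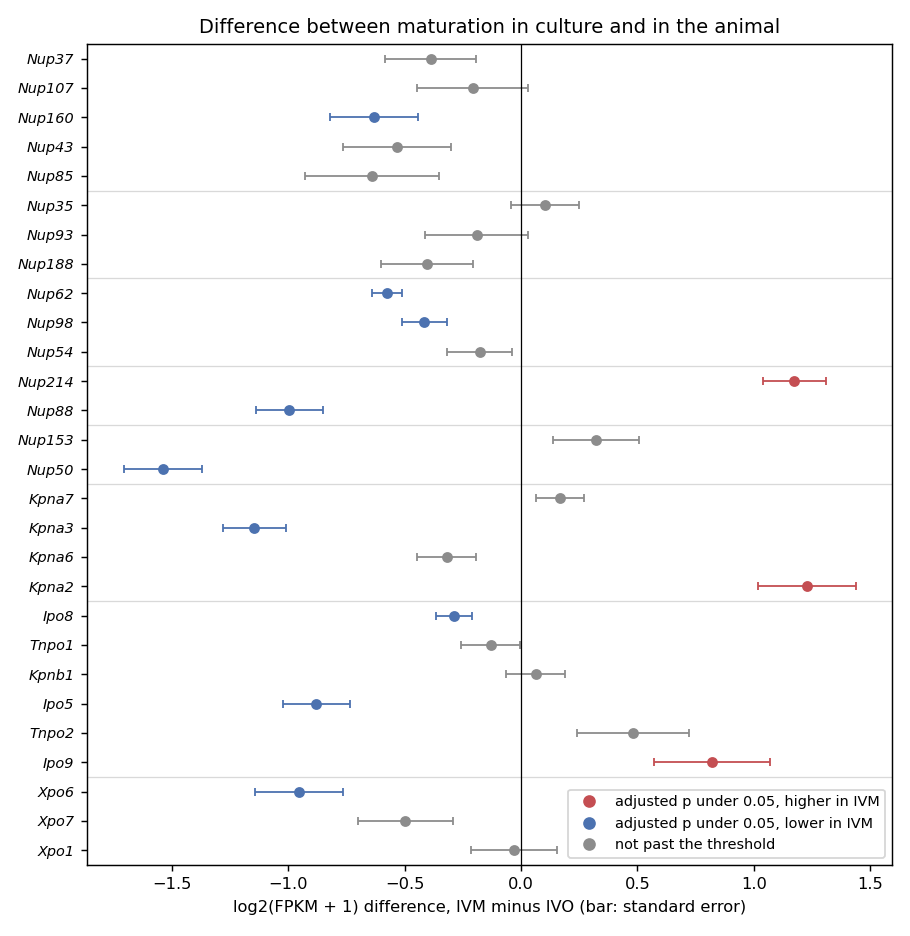
Difference in mean log2(FPKM + 1), IVM minus IVO, for the 28 tested genes, with the standard error as a bar and colour for the call. Nup50 and Kpna3 have the lowest values (-1.54 and -1.15), and Kpna2 and Nup214 the highest (1.23 and 1.17).

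Importin alpha transcripts differed in composition between the groups. There are 6 Kpna genes in the set. Kpna7 is the importin alpha of oocytes and early embryos, and in the mouse its loss impairs early development. Kpna7 (ENSMUSG00000038770.17, chr5:144983519-145084030, minus strand) was the most abundant Kpna gene in every library, with Kpna3 close to it in IVO replicate 3. Its FPKM was 88.2, 89.9 and 88.4 in IVM and 89.8, 78.2 and 70.3 in IVO. The groups overlapped, since IVO replicate 1 lay within the IVM range. Kpna7 was not called (log2 difference 0.17, SE 0.102, adjusted p = 0.227), but was called higher in IVM after scaling libraries to equal summed FPKM (adjusted p = 0.0351) or by quantile normalization (adjusted p = 0.0401). Annotated exons of Kpna7 overlap Arpc1a on the other strand, but the 2 loci given in the deposited table do not overlap.

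Kpna3 and Kpna2 were called in opposite directions. Kpna3 (chr14:61365211-61439874), an adaptor of the importin alpha 4 type, was at 23.3, 23.8 and 25.5 FPKM in IVM and 47.2, 52.3 and 66.5 in IVO. Every IVO library was above every IVM library, at 2.29 times the IVM mean (log2 difference -1.15, SE 0.135, adjusted p = 0.000261). Kpna2 (chr11:106988629-106999541), an adaptor typical of dividing and embryonic stem cells, was at 3.81, 2.63 and 3.75 FPKM in IVM and 1.18, 0.813 and 0.633 in IVO. Every IVM library was above every IVO library, at 3.89 times the IVO mean (log2 difference 1.23, SE 0.209, adjusted p = 0.00181). Kpna2 reached the level tested through IVM only, the group where it is higher. Kpna2 has an annotated pseudogene copy, so its low level is uncertain where counting could split reads between copies.

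The remaining adaptors were at or below the level of Kpna6. Kpna6, whose maternal supply is needed by the cleaving mouse embryo, was at 10.9, 11.9 and 9.79 FPKM in IVM and 13.5, 13.7 and 14.1 in IVO. The groups did not overlap, but Kpna6 was not called (log2 difference -0.32, SE 0.128, adjusted p = 0.0747). Kpna4 and Kpna1 were below the level tested. Kpna4 was at 0.644, 0.785 and 0.960 FPKM in IVM and 0.337, 0.141 and 0.0898 in IVO, without overlap, and Kpna1 was between 0.121 and 0.277 in all libraries.

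Set against the other Kpna genes, Kpna7 held a larger share in IVM. It made up 69.4, 69.6 and 68.7% of summed Kpna FPKM in IVM replicates 1, 2 and 3, and 59.0, 53.8 and 46.3% in IVO replicates 1, 2 and 3. The IVM libraries lay within 1 percentage point of each other and above every IVO library. The summed FPKM of the 5 other Kpna genes was 39.4 ± 0.754 in IVM and 70.4 ± 9.91 in IVO (n = 3, SD). The mean log2 ratio of Kpna7 to that sum was 1.17 ± 0.0334 in IVM and 0.177 ± 0.371 in IVO (n = 3, SD), a difference of 0.99 (exact two-sided permutation test, p = 0.1, the smallest possible). Kpna3 took 18.9 ± 0.824% of summed Kpna FPKM in IVM and 36.9 ± 6.47% in IVO, so that Kpna7 exceeded Kpna3 by 3.78, 3.78 and 3.47 times in IVM and by 1.90, 1.50 and 1.06 times in IVO. Kpna2 took 2.65 ± 0.533% and 0.583 ± 0.179%, and Kpna6 took 8.46 ± 0.809% and 9.19 ± 0.312%. Within Kpna genes the total was lower in IVM, at 128 ± 1.08 FPKM against 149.8 ± 3.79 (n = 3, SD; exact two-sided permutation test, p = 0.1).

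**Figure D4:**
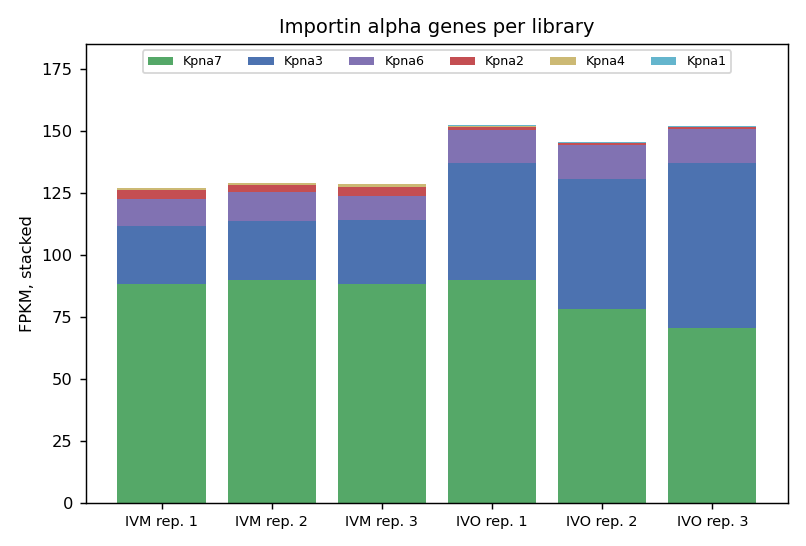
FPKM of the 6 importin alpha genes stacked for each library. Kpna7 fills 68.7 to 69.6% of each IVM bar and 46.3 to 59.0% of each IVO bar, with Kpna3 the next largest part.

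Promoters were matched for 3 of the 6 Kpna genes, Kpna7, Kpna2 and Kpna4. Those of Kpna7 and Kpna2, 300 bases around an annotated start and mostly upstream of it, are shown because they differ in the number of CpG dinucleotides. They are RefSeq sequences of GRCm38.p6, from chr5:145009587-145009886 and chr11:106999476-106999775, both on the minus strand, and CG is in capitals. The Kpna7 start lies inside the gene span given above, which on this strand begins at 145084030, and no promoter was matched at that end. The Kpna2 promoter covers the start of its gene span.
Kpna7: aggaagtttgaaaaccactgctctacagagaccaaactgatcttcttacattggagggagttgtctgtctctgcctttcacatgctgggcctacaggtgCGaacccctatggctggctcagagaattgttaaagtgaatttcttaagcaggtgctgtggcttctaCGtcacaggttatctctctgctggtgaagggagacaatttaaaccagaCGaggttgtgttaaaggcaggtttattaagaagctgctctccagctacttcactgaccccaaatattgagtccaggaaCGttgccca
Kpna2: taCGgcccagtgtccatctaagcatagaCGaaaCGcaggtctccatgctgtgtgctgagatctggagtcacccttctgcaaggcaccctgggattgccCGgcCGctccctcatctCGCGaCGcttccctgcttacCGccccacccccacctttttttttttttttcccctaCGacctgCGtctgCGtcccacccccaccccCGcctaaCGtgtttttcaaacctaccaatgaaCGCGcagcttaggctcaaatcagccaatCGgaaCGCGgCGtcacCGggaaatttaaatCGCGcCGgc
The Kpna7 promoter holds 4 CpG, the Kpna2 promoter 24 and the Kpna4 promoter 27. Of 41 promoters matched for 34 of the 44 genes, 37 held at least 17. The others were that of Kpna7 at its inner start, that of Nup160 with 6, and second starts of Nup93 with 3 and Ipo5 with 0. The median was 28 over these promoters, 21 over the 7667 promoters of tested genes and 7 over all 32851 promoters in the table. A promoter with 4 or fewer CpG was found for 10.3% of promoters of tested genes and 38.0% of all. The counts describe sequence, and methylation was not measured here.

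Import receptors of the beta family were led by Ipo8 and Tnpo1. Ipo8 (chr6:148770683-148831467, minus strand), a receptor that carries Argonaute and SMAD proteins among others, was at 286, 281 and 270.1 FPKM in IVM and 356, 356 and 313 in IVO. The groups did not overlap and Ipo8 was lower in IVM (log2 difference -0.29, SE 0.0773, adjusted p = 0.0160). The call was lost with equal summed FPKM, upper quartile scaling, quantile normalization or no intensity trend, and without IVM replicate 2, IVM replicate 3 or IVO replicate 2, with adjusted p from 0.0516 to 0.163. Tnpo1, which imports proteins with proline-tyrosine signals such as hnRNPs, was at 211, 205 and 213 FPKM in IVM and 248, 265 and 183 in IVO. IVO replicate 3 was the lowest of the 6 libraries, and Tnpo1 was not called (adjusted p = 0.451). Kpnb1, the importin beta that partners importin alpha, averaged 28.2 ± 1.99 FPKM in IVM and 27.1 ± 3.82 in IVO (n = 3, SD) and was not called (log2 difference 0.06, adjusted p = 0.730).

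Among the less abundant receptors, Ipo5 and Ipo9 were called. Ipo5, an importer of ribosomal proteins and histones, was at 5.39, 5.53 and 6.05 FPKM in IVM and 9.98, 11.8 and 11.99 in IVO. The groups did not overlap, and the IVO mean was 1.99 times the IVM mean (log2 difference -0.88, SE 0.144, adjusted p = 0.00150). Ipo9, which carries histone H2A-H2B dimers, was at 1.70, 1.72 and 1.92 FPKM in IVM and 0.214, 0.460 and 1.21 in IVO. It reached the level tested through IVM only, the group where it is higher. The IVM libraries were all above the IVO libraries, which were widely spread, and Ipo9 was higher in IVM (log2 difference 0.82, SE 0.249, adjusted p = 0.0273). That call was lost without any 1 IVM replicate or IVO replicate 1 or 2, with no level filter and with quantile normalization (adjusted p from 0.0666 to 0.120). Tnpo2, a close relative of Tnpo1, was not called (log2 difference 0.48, adjusted p = 0.141).

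Of 5 exportin genes, 3 were tested and 1 was called. Xpo6, the exporter of actin bound to profilin, was at 5.12, 5.52 and 3.30 FPKM in IVM and 9.00, 10.6 and 9.74 in IVO. The groups did not overlap, and the IVO mean was 2.11 times the IVM mean (log2 difference -0.95, SE 0.191, adjusted p = 0.00407). Xpo7 had a log2 difference of -0.50 and was not called (adjusted p = 0.0799), although the q-value in the authors' deposited table is 0.000679. Its annotated exons overlap Npm2 on the same strand, which averaged 25.5 ± 1.41 FPKM in IVM and 1.39 ± 0.735 in IVO, while the loci in the deposited table do not overlap. Xpo1, the general exporter of proteins with leucine-rich signals, was low in both groups, at 1.28 ± 0.201 and 1.32 ± 0.0972 FPKM (adjusted p = 0.919). The 5 exportins summed to 9.33 ± 1.35 FPKM in IVM and 16.7 ± 0.529 in IVO (n = 3, SD).

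Below the level tested, 4 of the 13 detected genes were higher in every IVM library than in any IVO library and 1 was lower. Of all genes below that level and above 0 in some library, 14.9% and 3.66% had such groups. Ipo13, a receptor that works in both directions, was at 1.44, 0.925 and 1.43 FPKM in IVM and 0.446, 0.205 and 0.187 in IVO, and the q-value in the authors' deposited table is 0.00331. Kpna4, Tnpo3 (which imports splicing factors rich in serine and arginine) and Nup133 were also higher in every IVM library than in any IVO library, with Tnpo3 listed at 0 in 1 IVO library and Nup133 in 2. Xpo4, an exporter of the translation factor eIF5A, was at 0.284, 0.170 and 0.195 FPKM in IVM and 0.629, 1.19 and 0.356 in IVO. The values of Ipo4, Ipo7, Ipo11, Kpna1, Nup155, Nup205, Nup210 and Xpo5 overlapped between groups.

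The spread between replicates differed between the groups. The median coefficient of variation over the 28 tested members was 7.47% in IVM and 18.4% in IVO, and it was higher in IVO for 21 of them. Over all tested genes the medians were 11.7% and 19.1%, and 69.5% had a higher value in IVO. IVO replicate 3 was the highest of its group for 11 members and the lowest for 13, and IVM replicate 3 for 12 and 12. IVO replicate 3 was the highest for Nup50 and Kpna3 and the lowest for Nup153, Kpna7, Kpnb1 and Tnpo1. Without it, 11 members were called lower and 4 higher.

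Other genes of nuclear transport were taken from lists, whose counts stand against the 20.6% higher and 20.4% lower among all tested genes. Of 12 pore genes whose symbols the rule did not cover, all were tested, 3 (25.0%) were lower in IVM and none was higher. Rae1, an mRNA export factor that binds Nup98, averaged 23.7 ± 3.22 FPKM in IVM and 48.9 ± 5.51 in IVO (n = 3, SD; log2 difference -1.01, adjusted p = 0.000465). Ahctf1, which seeds pore assembly on chromatin after division, was at 24.0 ± 1.11 and 42.6 ± 1.10 (log2 difference -0.80, adjusted p = 0.000294), and the membrane nucleoporin Pom121 at 113.5 ± 3.61 and 157 ± 15.4 (log2 difference -0.46, adjusted p = 0.00415). Their median log2 difference was -0.14.

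In the Ran cycle list, 4 of 8 genes were tested, 2 (50%) were lower in IVM and none was higher. Rcc1, the chromatin-bound factor that loads Ran with GTP, averaged 39.6 ± 0.881 FPKM in IVM and 55.9 ± 7.06 in IVO (n = 3, SD; log2 difference -0.48, adjusted p = 0.00774). Ranbp9, a scaffold protein named for binding Ran, was at 57.5 ± 3.85 and 116 ± 6.09 (log2 difference -1.001, adjusted p = 7.93e-05). Ran itself was not called (log2 difference 0.37, adjusted p = 0.191). Below the level tested, Rangap1 and Ranbp1 were higher in every IVM library than in any IVO library, while Ranbp10 and Rangrf overlapped. Rangap1 averaged 1.11 ± 0.278 FPKM in IVM and 0.137 ± 0.0850 in IVO, and Ranbp1 0.996 ± 0.473 and 0.431 ± 0.0912. Such groups were found for 14.9% of all genes detected below that level. Of 7 further transport receptors 2 were tested and none was called by limma. The smaller p was that of Nutf2, the importer of Ran (log2 difference -0.67, unadjusted p = 0.0547, adjusted p = 0.108). Neither was called by the q-values in the authors' deposited table.

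Of 18 mRNA export genes, 15 were tested, 3 (20%) were higher in IVM and 4 (26.7%) lower, near the shares among all tested genes. Of the 3 called genes of this list with the largest log2 differences in size, Alyref and Chtop were higher. Both are adaptors that load the export receptor onto mRNA. Alyref averaged 2.45 ± 0.587 FPKM in IVM and 0.523 ± 0.399 in IVO (log2 difference 1.20, adjusted p = 0.00529). Chtop averaged 4.24 ± 0.806 and 1.61 ± 0.881 (log2 difference 1.06, adjusted p = 0.0142). Alyref reached the level tested through IVM only, the group where it is higher. Of the 4 lower genes, Thoc6 reached that level through IVO only, the group where it is higher, with means of 0.628 FPKM in IVM and 1.47 in IVO. Pcid2, a subunit of the export complex at the pore, was lower, with 30.7 ± 0.871 and 51.6 ± 2.80 (log2 difference -0.73, adjusted p = 0.000424). Of 16 lamina and envelope genes, 11 were tested, 1 (9.09%) was higher and 1 lower. Lbr, an inner membrane receptor for lamin B, was at 218.8 ± 6.38 in IVM and 86.9 ± 35.4 in IVO (log2 difference 1.40, adjusted p = 0.00160), and Tor1a, an ATPase of the envelope lumen, at 33.9 ± 5.62 and 176.3 ± 9.55 (log2 difference -2.36, adjusted p = 6.51e-06). Of 10 SUMO genes, all were tested, 3 (30.0%) were higher and 2 (20%) lower. SUMO is a small protein modifier that is attached to RanGAP at the pore. Sumo3 and Sumo2 were higher in IVM (log2 differences 1.89 and 0.67, adjusted p = 7.78e-05 and 0.00679).

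**Figure D5:**
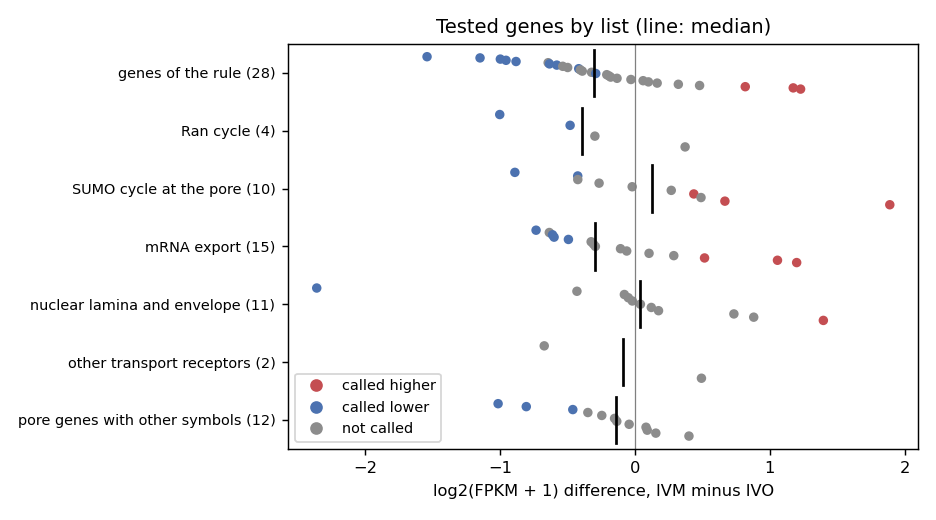
Difference in log2(FPKM + 1), IVM minus IVO, of tested genes in each list, with 1 point per gene, a line at the median and the number tested in brackets. Members have a median of -0.30, and the medians of the other lists lie between -0.39 (Ran cycle) and 0.13 (SUMO).

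The 3′ ends of the transcripts were searched for letters known from cytoplasmic polyadenylation, by which oocytes lengthen the poly(A) tail of stored mRNAs during maturation. The search covered the last 100 bases of annotated 3′ UTRs of at least 100 bases (GENCODE M21, GRCm38), on the transcript strand only, for TTTTAT or TTTTAAT, of which neither contains the other. Windows of 30 bases are shown for the 4 called genes that hold a match, with the match in capitals, as is an AATAAA hexamer where it falls inside the window.
Ipo5 (chr14:120947949-120947978, plus strand): tgagTTTTATgcataaatcagaatttaaaa
Ipo8 (chr6:148770704-148770733, minus strand): TTTTATgaatgtactgtaaAATAAAatgtg
Nup62 (chr7:44830718-44830747, plus strand): tctaTTTTATttctctgcactctattgtag
Nup98 (chr7:102119468-102119497, minus strand): tTTTTATtaaaaaatatatatatatatata
All 4 were lower in IVM. Of tested members with a usable 3′ UTR, 4 of 9 lower, 0 of 3 higher and 5 of 15 not called held a match. Among all tested genes the share with a match was 27.8% of those lower, 14.7% of those higher and 26.1% of those not called. A match is a description of the annotated end and does not show a site in use. The sources used here do not say whether poly(A) RNA was selected, so the part of tail length in these FPKM differences was not tested.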

How the data were processed

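The authors deposited FPKM for each gene in each library, with p-values and q-values for IVM against IVO, per the file headers. Their column of log2 ratios held spreadsheet error text and was not used, so directions of their calls come from mean FPKM. No source used here names the aligner, the counter or the gene annotation. The submitters' processing notes name mm9. Of the 44 members, 43 were found in the GRCm38 annotation, and for all 43 the deposited locus nevertheless overlapped the gene of the same symbol. Nup62-il4i1 was not found there and could not be compared. GRCm38 coordinates are printed. Depth in reads is unknown, so no counting interval is given, and a 0 is only a listed 0.

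Where the mean FPKM reached 1, genes entered a two-sided limma fit (version 3.58.1, R 4.3.3) of log2(FPKM + 1), a scale that understates the change of low genes. The fit had an intensity trend, and p-values were adjusted by Benjamini-Hochberg with a threshold of 0.05. The fit was also run on 10 simulated data sets, with changes planted in a small part of the genes and independent noise. No level filter was applied there, and far fewer genes changed than the 41.0% called here. The simulation therefore cannot give the error rate of the calls in these data. Values per library were compared by exact permutation. Members and lists were chosen with earlier results of these data known. Named genes were every Kpna gene, and in each role up to 4 called members with groups that did not overlap and the most abundant member. From each list they were up to 3 called genes by size of difference, or the one with the smallest p. Of the genes this takes, 1 is not reported here. Other members named, and Ran, Rangap1, Ranbp1, Ranbp10, Rangrf and Thoc6, were named after their values were seen. Alternatives covered the pseudocount, level filter, scaling, variance trend, a replicate block, each library left out and the authors' q-values.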

Additional observations from a re-analysis of the deposited data

How the results depend on the processing

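The calls of Nup50, Kpna3, Nup88, Xpo6, Ipo5, Nup62, Nup98, Nup214 and Kpna2 held under all 15 alternatives run (14 for Kpna2), and none of the 17 tested members taken by the naming rule changed direction. The other members were compared by counts only. The calls of Ipo8, Ipo9 and Nup160 did not hold throughout, and the cause was not tested. With a mean FPKM of at least 5, 17 members and 4505 genes of the whole table were tested. Of these, 1 member and 835 genes were higher in IVM, and 8 members and 1392 genes were lower. In the main fit of 28 members and 7746 genes, 3 members and 1595 genes were higher, and 9 members and 1583 genes were lower. Leaving out 1 library gave 2 to 4 members higher and 7 to 11 lower, and 1160 to 1684 genes higher and 1175 to 1619 lower in the whole table. Scaling to equal summed FPKM moved the median log2 difference of all tested genes from -0.02 to 0.10 and that of members from -0.30 to -0.17, with 7 members lower and 4 higher. In the whole table that scaling gave 1949 genes higher and 1167 lower, and quantile normalization gave 1426 and 1778, against 1595 and 1583. The log2 ratio of Kpna7 to the other Kpna genes differed by 0.80 to 1.17 without 1 library. Replicate numbers are shared by the groups, but the deviations of same-numbered libraries correlated at 0.0777, 0.0599 and 0.0900, so the numbers were not taken to pair the libraries, although each library correlated best with its own number. With the replicate block, 3 members were higher and 10 lower, and the Kpna7 difference was 0.99. Labels give no batch or date. With 3 libraries a group no exact test can pass 0.05, and depth is unknown, so the counting error of genes near an FPKM of 1 cannot be given.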
